A study of Mus musculus with 4 samples.

Results

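The Ifi200 genes encode interferon-inducible proteins of the PYHIN family, most of which bind DNA through a HIN domain and many of which carry a pyrin domain for contacts with other proteins. The 6 members described here are *Ifi202b*, *Ifi203*, *Ifi204*, *Mnda*, *Mndal* and *Aim2*, which are 6 of the 24411 genes listed for each library. They were chosen by name on the difference of *Ifi202b* between libraries labelled *Zfp541* KO and control libraries, so their differences in that comparison are given as a description, without a test. GFP-positive cells were sorted from testes at postnatal day 18, 2 testes of *Zfp541*+/- mice as controls and 2 of mice labelled *Zfp541* KO, and their RNA was sequenced as bulk samples. *Zfp541* encodes a zinc finger protein of meiotic germ cells, and the KO allele was made by genome editing that removed a large part of the coding exons. All the mice carried Rec8-3xFLAG-HA-p2A-GFP, a knock-in allele that makes GFP along with the meiotic cohesin REC8. Of the 2 control testes, 1 was heterozygous and 1 homozygous for the knock-in (the labels do not say which library is which), while both KO testes were homozygous, so the dose of the knock-in was not balanced between the groups. The sample labels give a mixed C57BL/6 and CBA strain, whereas the study's methods name C57BL/6. The methods add that the knock-in was made in TT2 embryonic stem cells aggregated with ICR hosts, and call the line congenic with C57BL/6. Neither source gives the strain origin of chromosome 1 in each mouse.

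AIM2 is a sensor of double-stranded DNA in the cytosol that recruits the adaptor ASC and caspase-1 into an inflammasome. p204, the product of *Ifi204*, is a DNA sensor that acts upstream of STING, and p202, the product of *Ifi202b*, lacks a pyrin domain and is known to restrain AIM2. The genes lie side by side, differ between inbred mouse strains and are best known from macrophages and other leukocytes, with C57BL/6 known as a strain of low *Ifi202b* expression.

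Expression was deposited as TPM (a level per transcript length, scaled to 1000000 in each library), so levels can be set side by side between genes, but the sequencing depth is unknown and no counting interval can be given. Differences are on the log2(TPM + 1) scale, with the standard error (SE) from limma over n = 2 libraries a group; this scale understates the change of low genes. The meiotic marker *Sycp3* was between 1108 and 2196 TPM in the 4 libraries. *Rec8* was at 7.05 TPM in control 1, 27.9 TPM in control 2, 27.7 TPM in KO 1 and 19.4 TPM in KO 2. The transcript of the targeted gene did not fall with the label: *Zfp541* was at 112 TPM in control 1 and 72.2 TPM in control 2, against 136 TPM in KO 1 and 151 TPM in KO 2, so every direction below rests on the labels alone. Control 2 stood apart, with 7646 genes listed at 0 against 6518 to 6731 in the other libraries, and the values without it are given where it changes a result. Control 1 stood out as well, with the lowest *Rec8* and the most Leydig cell marker RNA. Those markers summed to 3640 TPM in control 1, 19.4 TPM in control 2, 399.7 TPM in KO 1 and 618.5 TPM in KO 2. Differences against control 1 alone thus rest on a library that is not a neutral reference. Of 14512 genes tested (mean of at least 1 TPM), 0 (0%) passed a false discovery rate (FDR) of 0.05 by limma, and the smallest adjusted p was 0.310. This count rests on the spread between the controls: 2248 genes were called higher and 1875 lower without control 2, and 5610 and 1375 without control 1, where the lone control is taken to vary like the other group. At an unadjusted p under 0.05, 1549 genes (10.7%) were higher and 542 (3.73%) lower in the libraries labelled KO; after median-ratio scaling, which moved the median of all genes from 0.28 to 0.00, these were 629 and 1079, and without control 2 they were 4050 and 2798.

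The 6 members lay within 633298 bases of chromosome 1 (GRCm38). *Aim2* was at chr1:173349547-173466040, *Ifi204* at chr1:173747293-173767069, *Mndal* at chr1:173857215-173880382, *Mnda* (*Ifi211* in RefSeq) at chr1:173896339-173913087, *Ifi203* at chr1:173920400-173942866 and *Ifi202b* at chr1:173962569-173982844. RefSeq promoter windows of GRCm38.p6, from 250 bases before to 50 bases after each listed start, were given for 5 members, all but *Ifi204*. They were searched on both strands for the core of the interferon-stimulated response element (ISRE), spelled GAAANNGAAA, and for the interferon gamma-activated site (GAS) core, spelled TTCNNNGAA. The pieces below show the ISRE core on the gene's strand, in capitals, for the 3 members that held it and for *AI607873* (*Ifi207* in RefSeq), the other family gene with TPM like that of the members.

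Ifi203: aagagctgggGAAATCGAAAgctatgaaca
Mndal: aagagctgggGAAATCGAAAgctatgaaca
Mnda: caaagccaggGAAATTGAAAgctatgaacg
AI607873: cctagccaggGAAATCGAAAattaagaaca

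In order, these pieces are chr1:173942508-173942537, chr1:173880204-173880233, chr1:173913064-173913093 and chr1:173741831-173741860, all on the minus strand, and their cores began 35, 36, 37 and 41 bases before a listed start. The 30 bases of *Ifi203* and *Mndal* were identical. An ISRE core was found in the windows of 9 of 12 family genes, against 3.99% of all 27025 genes with a window. The exact match GAAATCGAAA was found in 7 of the 12 family genes, against 0.059% of all genes (16 genes), so the other genes with a core (1079 in all) held different inner bases. The windows of *Ifi202b* and *Aim2* held no ISRE core. The bases searched before the *Aim2* start, chr1:173420354-173420603, lay inside the span of that gene given above, so the outer end of that span was not searched. The *Ifi203* and *Mndal* pieces also lay within the spans of their genes, and another listed start of *Ifi203* had a window without the core. The 250 bases before the *Ifi202b* start, chr1:173982845-173983094 on the minus strand, are shown because they lack the core that its neighbours hold, and the capitals mark their GAS core, which began 148 bases before the start.

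Ifi202b: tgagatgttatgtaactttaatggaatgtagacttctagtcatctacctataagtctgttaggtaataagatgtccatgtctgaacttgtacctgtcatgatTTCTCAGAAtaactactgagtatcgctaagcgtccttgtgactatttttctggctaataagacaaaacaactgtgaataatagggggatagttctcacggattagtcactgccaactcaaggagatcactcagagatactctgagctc

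A GAS core was found in the windows of 9.55% of all genes and in that of 1 of the 12 family genes, *Ifi202b*. These are matches of letters in the sequence of the reference strain, C57BL/6J, in windows around the listed starts, and do not show that a factor binds there.

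**Figure D1:**
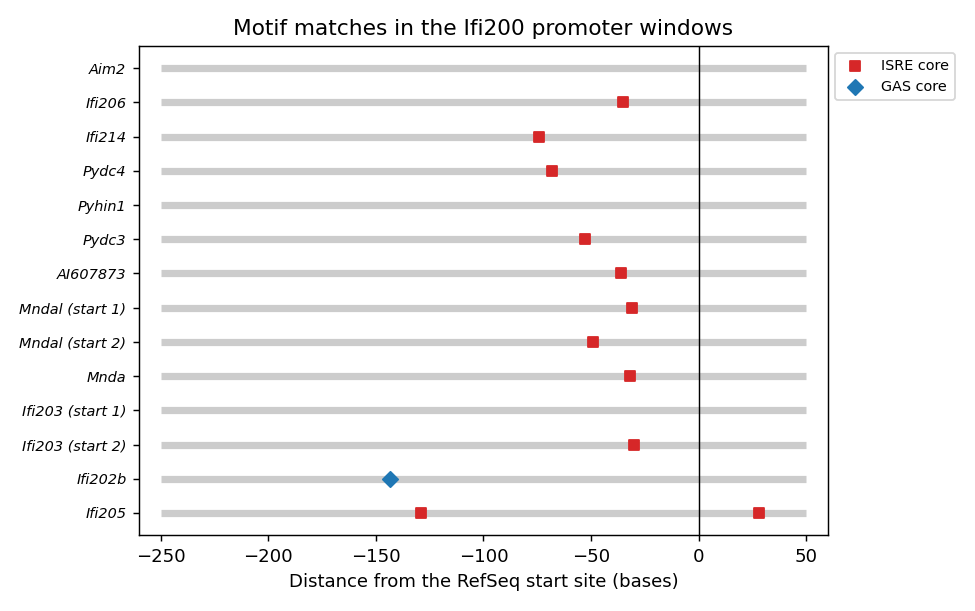
Positions of ISRE core (squares) and GAS core (diamond) matches in the 14 promoter windows of 12 Ifi200 family genes, on either strand, in bases from the RefSeq start site. The cores of Ifi203, Mndal, Mnda and AI607873 on the gene's strand began 35 to 41 bases before a start, and the windows of Ifi202b and Aim2 hold no ISRE core.

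*Ifi202b* was at 0.28 TPM in control 1, was listed at 0 in control 2, and was at 10.6 and 11.9 TPM in the libraries labelled KO 1 and 2. Both controls were thus near 0 and both libraries labelled KO were alike, and the groups did not overlap. The mean was 0.14 ± 0.198 TPM in the controls and 11.3 ± 0.969 TPM in the libraries labelled KO (SD, n = 2 each), a difference of 3.43 (SE 0.40) on the log2 scale. This difference was the 11th of 14512 in size, beside *Snora43* and *Snora34* above it and *Clca3b* and *Snord1c* below it. That of *Snord1c* came from KO 2 alone (95.1 TPM), as it was listed at 0 in KO 1 and both controls. Against control 1 alone it was 3.26, and the controls differed from each other by 0.36. Of all other genes listed, 5 were at 0.28 TPM or less in both controls and at 10.57 TPM or more in both libraries labelled KO. These limits are the higher control value and the lower KO value of *Ifi202b*.

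The other 5 members did not share this pattern: in each of them control 2 was near 0 and control 1 was, on the log2 scale, nearer to both libraries labelled KO than to control 2. *Mndal*, the member with the highest level in KO 1 and KO 2, was at 12.5 TPM in control 1, 0.18 TPM in control 2, and 16.6 and 13.2 TPM in KO 1 and KO 2. *Ifi203* was at 6.68 TPM in control 1, was listed at 0 in control 2, and was at 8.97 and 7.62 TPM in KO 1 and KO 2. For both, the libraries labelled KO were above control 1 by less than the controls differed from each other. The log2 difference between the groups was 1.98 (SE 1.25) for *Mndal* and 1.74 (SE 1.07) for *Ifi203*, and against control 1 alone it was 0.23 and 0.27.

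*Ifi204* was at 14.7 TPM in control 1, was listed at 0 in control 2, and was at 6.71 and 9.12 TPM in KO 1 and KO 2. *Mnda* was at 4.06 TPM in control 1, was listed at 0 in control 2, and was at 1.68 and 2.31 TPM in KO 1 and KO 2. *Aim2* was at 4.10 TPM in control 1, 0.13 TPM in control 2, and 3.11 and 3.12 TPM in KO 1 and KO 2. In these 3 genes control 1 was the highest library and control 2 the lowest, so the groups overlapped. The log2 difference between the groups was 1.16 (SE 1.41) for *Ifi204*, 0.40 (SE 0.89) for *Mnda* and 0.78 (SE 0.83) for *Aim2*, and against control 1 alone it turned to -0.83, -0.76 and -0.31.

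**Figure D2:**
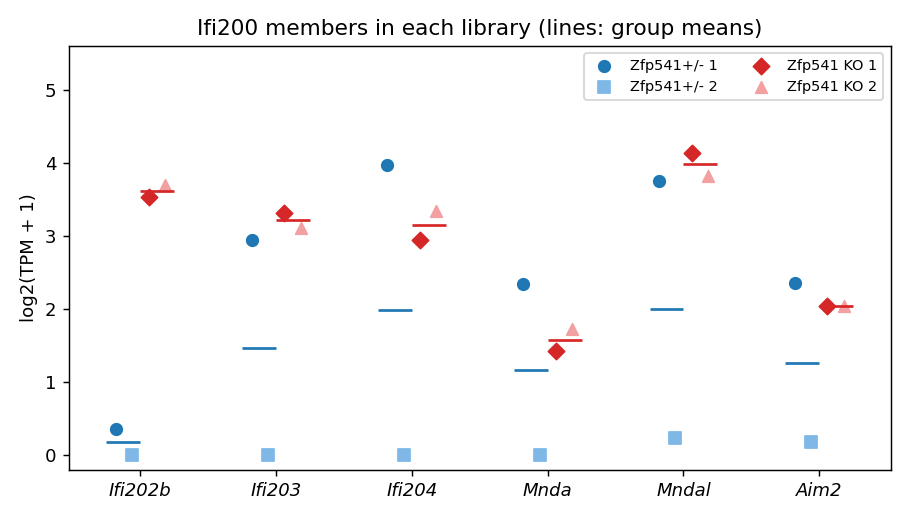
Levels of the 6 members as log2(TPM + 1), with a point for each of the 4 libraries and a line for the mean of each group of 2. Ifi202b is near 0 in both controls, while in the other 5 members control 2 alone is near 0.

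All 6 members passed the filter on low values, *Ifi202b* only through the libraries labelled KO. The 3 members higher in both libraries labelled KO than in both controls were *Ifi202b*, *Ifi203* and *Mndal*, where 38.6% of all genes tested were, and 0 were lower in both, where 12.1% were. The median log2 difference of the members was 1.45 between the groups, against 0.28 over all genes tested, and -0.042 against control 1 alone, where all genes were at 0.15. Between the 2 controls, 5 of the 6 members (all but *Ifi202b*) were at least 2-fold higher in control 1, where 25.9% of all genes tested were, and the median difference was 2.64 against 0.36 over all genes. Of the 5 members at 1 TPM or more in the other 3 libraries, *Ifi203*, *Ifi204* and *Mnda* were listed at 0 in control 2, where 1.33% of such genes were (180 of 13514). The 2 libraries labelled KO, by contrast, differed by -0.31 to 0.39 in the members, with a median of 0.08. Summed over the members, the level was 42.3, 0.31, 47.6 and 47.3 TPM in control 1, control 2, KO 1 and KO 2, so the total without *Ifi202b* was not higher in the libraries labelled KO than in control 1.

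Within the libraries labelled KO, the order of levels ran from *Mndal* (14.9 ± 2.41 TPM, SD, n = 2) through *Ifi202b*, *Ifi203*, *Ifi204* and *Aim2* (3.12 ± 0.00707 TPM) to *Mnda* (2.00 ± 0.445 TPM). The ranges of *Ifi203* and *Ifi204* overlapped, and those of the other neighbours in this order did not. In control 1 the order was *Ifi204*, *Mndal*, *Ifi203*, *Aim2*, *Mnda* and *Ifi202b*, in which *Aim2* and *Mnda* differed by less than 0.1 TPM. In bulk RNA, fewer cells of a type and less RNA per cell cannot be told apart, and as the labels name separate testes but not whether they came from separate mice, the limma p-values measure only the spread between these libraries.

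Reads of these paralogues can be hard to assign. Of the 75-base words (the read length) of the longest GENCODE transcript, 0% were shared with another gene in *Ifi202b* and *Aim2*, 5.19% in *Ifi203*, 13.9% in *Mndal* and 20.8% in *Ifi204*. In *Mnda* 63.6% were shared, mainly with *Ifi205*, so the level of *Mnda* is uncertain. By exact words of full read length in the reference transcripts, *Ifi202b* and *Aim2* thus had no reads common to several genes. Trimmed reads, reads with mismatches and alleles of other strains were not examined.

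Of the 6 other family genes with a row, *AI607873* passed the filter. It was at 12.7 TPM in control 1, 0.04 TPM in control 2, and 13.4 and 13.6 TPM in KO 1 and KO 2, which is the pattern of *Mndal* and *Ifi203*; the log2 difference was 1.94 (SE 1.32, adjusted p = 0.530 from limma). *Pyhin1* was at 1.20 TPM in control 1 and at 0.70 and 0.52 TPM in KO 1 and KO 2, and *Pydc3* at 0.66, 0.15 and 0.31 TPM; both were listed at 0 in control 2. *Ifi205* was listed at 0 in control 1 and was at 0.37 TPM in control 2, 0.87 TPM in KO 1 and 0.29 TPM in KO 2. *Pydc4* reached 0.19 TPM at most, and *BC094916* was listed at 0 in every library.

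**Figure D3:**
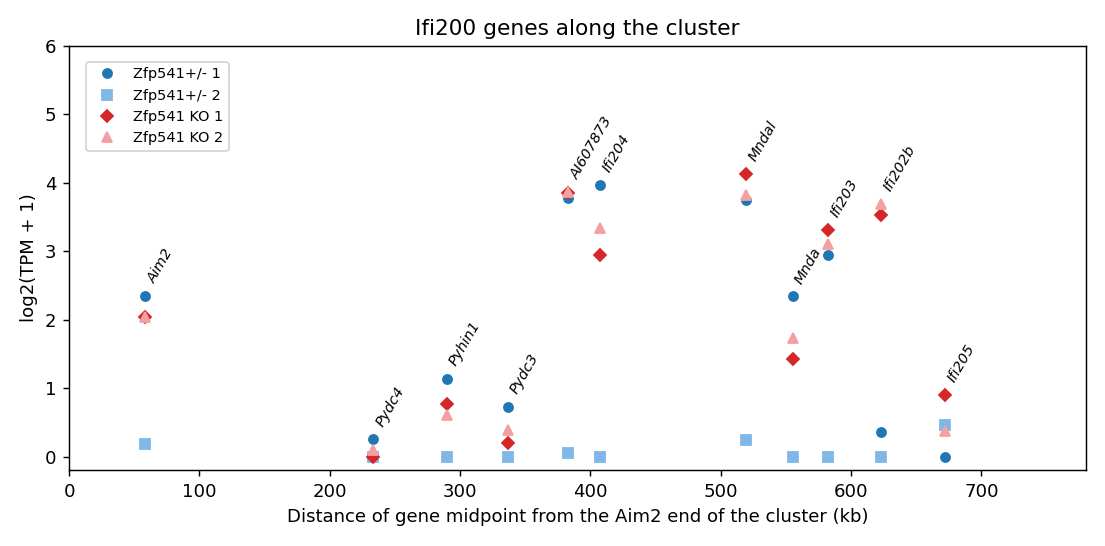
Levels of the Ifi200 family genes along the cluster as log2(TPM + 1), against the distance of each gene's midpoint from the Aim2 end in kb, with a symbol for each library. Control 2 is at 0.37 TPM or less along the whole cluster. Control 1 is near 0 at Ifi202b, and also at Pydc4 and Ifi205, where the libraries labelled KO are at 0.87 TPM or less.

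Control 2 also differed from the other libraries in markers of macrophages and other leukocytes. The 21 markers summed to 4136 TPM in control 1, 115.7 TPM in control 2, and 3602 and 2656 TPM in KO 1 and KO 2, and 20 of the 21 (all but *H2-Ab1*) were at least 2-fold higher in control 1 than in control 2. *Csf1r*, the receptor that macrophages need for survival, was at 209, 1.12, 196 and 140 TPM in the same order, and *C1qa*, a complement component made by macrophages, at 477, 6.39, 401 and 328 TPM. *Ptprc*, the pan-leukocyte CD45, was at 9.77, 0.04, 10.5 and 8.57 TPM, and *Cd68* at 139, 2.44, 118 and 93.9 TPM. The markers thus moved as 5 of the members did, and their part in the members' levels was not tested. Leydig cell markers summed to 3640, 19.4, 399.7 and 618.5 TPM, stromal markers to 251.4, 28.3, 115.2 and 126.3 TPM, and Sertoli cell markers to 997, 845.9, 1223 and 883.1 TPM. Spermatogonial markers summed to 312.8, 922.8, 653.4 and 468.0 TPM in the same order, lowest in control 1.

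Set against 1000 TPM of the summed leukocyte markers, *Ifi202b* was at 0.0677 TPM in control 1, 0 in control 2, and 2.94 and 4.50 TPM in KO 1 and KO 2. The marker sum was 4136 TPM in control 1 and 3602 and 2656 TPM in KO 1 and KO 2. Which cells made *Ifi202b* was not tested. On the same basis *Aim2* was at 0.991, 1.12, 0.864 and 1.18 TPM, and *Mndal* at 3.02, 1.56, 4.60 and 4.96 TPM. The values of *Aim2* and *Mndal* in control 2 rest on 0.13 and 0.18 TPM and on a marker sum of which *H2-Ab1* made up 32.9 TPM and *Fcgr3* 31.8 TPM, so they were not compared with those of the other libraries. *Ifi203*, *Ifi204* and *Mnda* were at 0 on this basis in control 2. *Ifi203* was at 1.62 TPM in control 1 and 2.49 and 2.87 TPM in KO 1 and KO 2, *Ifi204* at 3.54, 1.86 and 3.43 TPM, and *Mnda* at 0.982, 0.467 and 0.870 TPM.

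**Figure D4:**
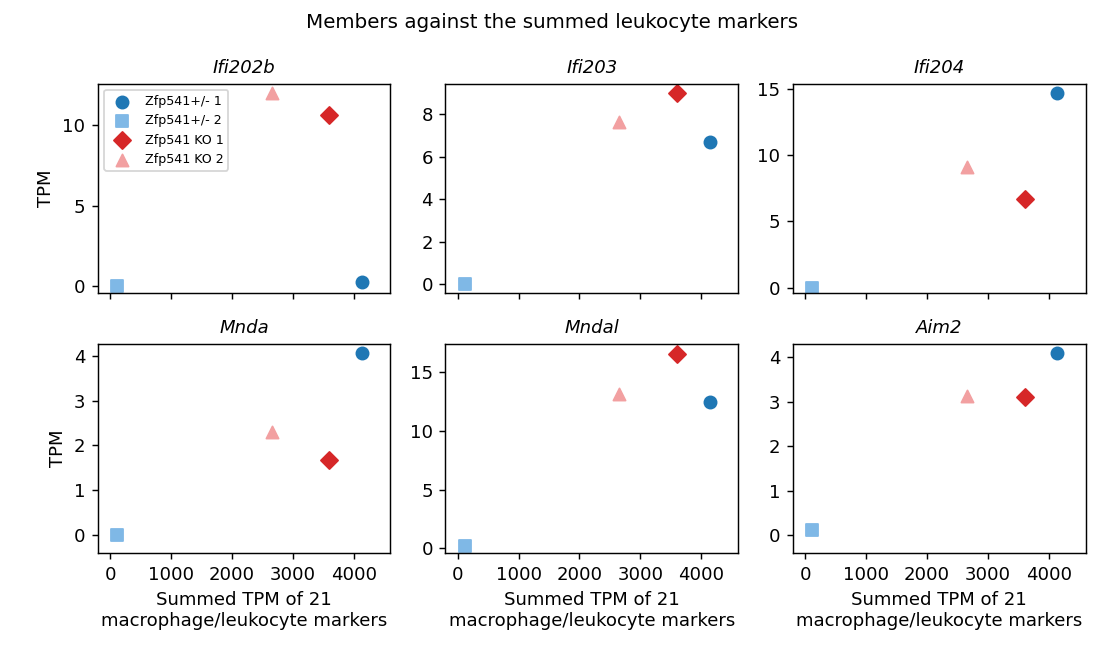
TPM of each member against the summed TPM of 21 macrophage and leukocyte markers, with a point for each library. For 5 members the 3 libraries with 2656 to 4136 TPM of markers are high and control 2, with 115.7 TPM, is near 0; Ifi202b is near 0 at both the lowest and the highest sum.

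The other genes of the pathway were taken as lists of DNA sensing and inflammasome genes, interferon signalling genes and interferon-stimulated genes. Of 106 tested, 0 passed an FDR of 0.05 in limma. At an unadjusted p under 0.05 from limma, 3 were higher and 1 lower, where 10.7% and 3.73% of all genes tested were. These 4 genes, named after their values were seen, were *Traf3*, *Tbk1* and *Jak2*, which were higher in the libraries labelled KO, and *Rnaseh2a*, which was lower. Without overlap between the groups, 22 were higher and 5 lower, where 38.6% and 12.1% of all genes were, and 71 were at least 2-fold higher in control 1 than in control 2, where 25.9% of all genes were. Without control 2 the median log2 differences of the 3 lists, in the order named, turned to -0.083, -0.11 and -0.32, where all genes were at 0.15. Without control 1 they were 1.21, 1.07 and 1.73, where all genes were at 0.44. The medians of the 3 lists, in the order named, were 1.21, 0.82 and 2.18 between control 1 and control 2, above their medians between the groups.

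Of 28 DNA sensing and inflammasome genes tested, 10 were higher and 2 lower without overlap (38.6% and 12.1% of all genes), with a median log2 difference of 0.69 against 0.28 over all genes. This median was 0.41 after median-ratio scaling, and without control 2 it turned to -0.083, where all genes were at 0.15. *Mb21d1* encodes cGAS, which makes the messenger that activates STING; it was at 9.53 TPM in control 1 and 4.22 TPM in control 2, against 5.40 TPM in KO 1 and 7.52 TPM in KO 2. *Tmem173*, which encodes STING, was at 9.94 TPM in control 1 and 0.11 TPM in control 2, against 4.63 TPM in KO 1 and 5.86 TPM in KO 2. *Pycard*, which encodes ASC, was at 6.42 TPM in control 1 and 3.08 TPM in control 2, against 5.53 TPM in KO 1 and 3.99 TPM in KO 2. The partners of AIM2 and p204 were thus between the 2 controls in the libraries labelled KO, as *Aim2* and *Ifi204* were. So was *Casp1*, the inflammasome protease, listed at 0 in control 2 and at 13.7, 10.5 and 8.20 TPM in control 1, KO 1 and KO 2. *Casp4*, an inflammatory caspase, was at 2.64 TPM in control 1 and 3.36 and 4.05 TPM in KO 1 and KO 2, and was listed at 0 in control 2.

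*Traf3*, an adaptor of innate immune receptors, was at 7.78 TPM in control 1 and 5.58 TPM in control 2, against 22.3 TPM in KO 1 and 23.6 TPM in KO 2, a log2 difference of 1.66 (SE 0.33, adjusted p = 0.310 from limma). *Tbk1*, the kinase downstream of STING, was at 45.8 TPM in control 1 and 50.3 TPM in control 2, against 77.7 TPM in KO 1 and 85.4 TPM in KO 2, a log2 difference of 0.75 (SE 0.19, adjusted p = 0.311 from limma). The controls differed by 0.42 in *Traf3*, -0.13 in *Tbk1*, 0.89 in *Jak2* and 1.20 in *Rnaseh2a*, against a median of 0.36 over all genes tested. These genes were picked by their unadjusted p from limma, which favours genes with close controls, so these values are a description. *Rnaseh2a*, a subunit of the nuclease that removes RNA from RNA-DNA hybrids, was at 162 TPM in control 1 and 69.8 TPM in control 2, against 18.6 TPM in KO 1 and 18.5 TPM in KO 2, a log2 difference of -2.46 (SE 0.45, adjusted p = 0.310 from limma). *Dhx58* and *Rnaseh2c*, at log2 differences of -1.23 and -0.57, were the next lowest of this list.

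Of 20 interferon signalling genes tested, 5 were higher and 2 lower without overlap (38.6% and 12.1% of all genes), with a median log2 difference of 0.44 against 0.28 over all genes. This median was 0.16 after median-ratio scaling and 0.12 after quantile normalization, and without control 2 it turned to -0.11. *Ifnb1* and *Ifng*, which encode interferons, were listed at 0 in every library. *Jak2*, a kinase of cytokine receptors, was at 16.8 TPM in control 1 and 8.55 TPM in control 2, against 32.6 TPM in KO 1 and 28.7 TPM in KO 2, a log2 difference of 1.28 (SE 0.41, adjusted p = 0.320 from limma). *Stat2* and *Irf2* followed at 0.95 each, and *Socs1*, *Tyk2* and *Usp18* were lowest at -0.54, -0.24 and -0.18. *Irf7* was at 6.03, 0.92, 4.93 and 5.11 TPM in control 1, control 2, KO 1 and KO 2.

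Of 58 interferon-stimulated genes tested, 7 were higher and 1 lower without overlap, where 38.6% and 12.1% of all genes were. The median log2 difference was 0.71 between the groups (0.46 after median-ratio scaling) and -0.32 against control 1 alone, and 46 were at least 2-fold higher in control 1 than in control 2 (25.9% of all genes). The highest differences were those of *Ifitm2* (1.98), *Lgals9* (1.81) and *Psmb8* (1.69), and on average each was below control 1 in the libraries labelled KO. The lowest were those of *Ifi27* (-0.65), *Epsti1* (-0.63) and *Herc6* (-0.58). *Isg15*, a ubiquitin-like protein and a common marker of interferon response, was at 2.82 TPM in control 1 and 0.28 TPM in control 2, against 0.64 TPM in KO 1 and 1.31 TPM in KO 2. *Oas1a* was at 5.65 TPM in control 1 and 1.10 TPM in control 2, against 4.14 TPM in KO 1 and 4.33 TPM in KO 2, and *Ifit1* was at 0.84 TPM in control 1, listed at 0 in control 2, and at 1.20 and 1.67 TPM in KO 1 and KO 2. In each interferon-stimulated gene named here control 1 was above control 2.

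**Figure D5:**
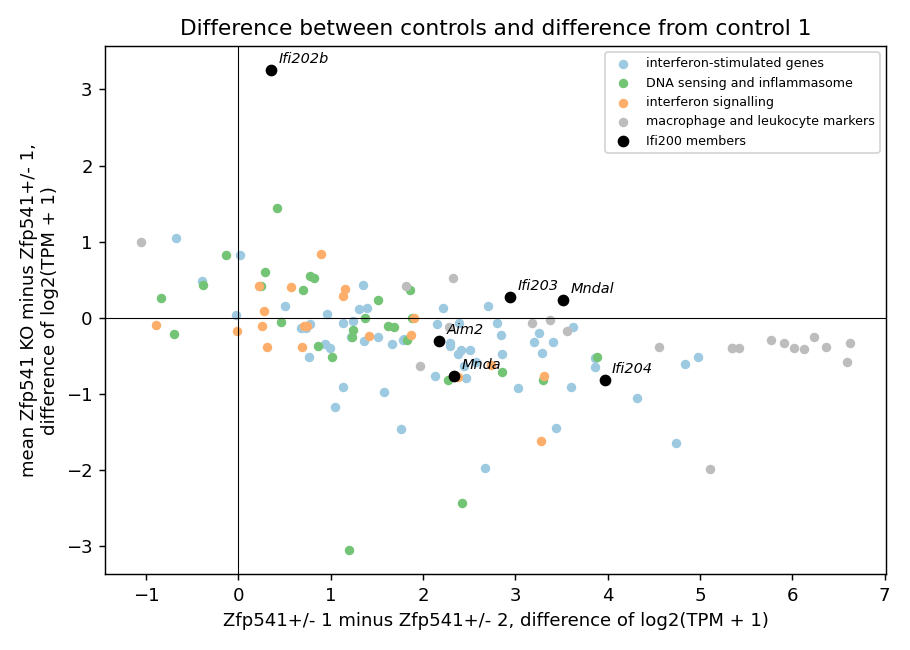
Difference of log2(TPM + 1) between the mean of the libraries labelled KO and control 1, against the difference between control 1 and control 2, for the 6 members (black), genes of 3 pathway lists and leukocyte markers (colours). Ifi202b lies at 3.26 on the vertical and 0.36 on the horizontal axis, and the other 5 members lie between -0.83 and 0.27 on the vertical axis.

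The genes whose centred log2(TPM + 1) profile over the 4 libraries was nearest to that of *Ifi202b*, by Euclidean distance, were *Clca3b* (0.404), *Mir466i* (0.435), *Loxl4* (0.487), *Fam81a* (0.867) and *Mir1291* (1.01). As *Ifi202b* was chosen for its difference between the groups, the genes nearest to it share that difference by construction. *Clca3b*, *Mir466i*, *Loxl4* and *Mir1291* averaged under 1 TPM in the controls and passed the filter only through the libraries labelled KO. Of the members, *Ifi203* was nearest to *Ifi202b*, at a distance of 2.51 and in place 1058 of 14511 genes. *Ifi203* and *Mndal* were 0.478 apart, in places 52 and 37 of each other's order. *Mnda* and *Aim2* were 0.445 apart, in places 194 and 294, and *Ifi204* was nearest to *Mndal* among the members, at 1.02 and in place 277. Each of the 6 members thus had genes outside the family nearer to it than any other member. With 14511 genes compared over 4 libraries, this does not measure how alike the members are.

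Within 1000000 bases of the cluster, 41 genes of other kinds were listed, 25 of them at 0 in every library and 20 of them olfactory receptor genes. Of the 7 tested, *Pigm* was higher and *Cfap45* lower without overlap, where 38.6% and 12.1% of all genes were, and 4 were at least 2-fold higher in control 1 than in control 2, where 25.9% were. The median log2 difference was 0.49 (0.24 after median-ratio scaling) and turned to -0.20 without control 2. *Pigm*, an enzyme of GPI anchor synthesis, was at 9.70 TPM in control 1 and 6.88 TPM in control 2, against 12.1 TPM in KO 1 and 11.6 TPM in KO 2. *Cfap45*, a protein of cilia and flagella, was at 112 TPM in control 1 and 25.1 TPM in control 2, against 6.40 TPM in KO 1 and 10.6 TPM in KO 2, a log2 difference of -2.55 (SE 0.79, adjusted p = 0.320 from limma). The others (*Slamf9*, *Igsf9*, *Tagln2*, *Dusp23* and *Crp*) had log2 differences of 0.60, 0.18, 0.54, 0.53 and 0.40. None of the 7 was higher by as much as *Ifi202b*, but all 7 lie beyond the *Aim2* end of the cluster. No gene of another kind within the cluster or beyond its *Ifi202b* end was tested, so genes next to *Ifi202b* were not compared.

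*Nnt* and *H2-Ea*, genes with defects known from C57BL/6 mice, were looked at because the strain is given differently by the labels and the methods. *Nnt* was at 42.6 TPM in control 1 and 10.2 TPM in control 2, against 20.6 TPM in KO 1 and 18.0 TPM in KO 2, and *H2-Ea-ps* was listed at 0 in every library. These levels do not show which alleles the mice carried. The strain of each mouse at the Ifi200 cluster is not given and cannot be told apart from the genotype in these libraries.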

How the data were processed

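RNA of GFP-positive cells from 2 *Zfp541*+/- testes and 2 testes labelled *Zfp541* KO was sequenced in single reads of 75 bases after poly(A) selection. According to the submitters' processing notes, reads were handled with Trim Galore 0.5.0, cutadapt 1.16, STAR 2.6.0a and RSEM 1.3.1 on mm10. The values used are the TPM that the authors deposited for each gene. RSEM divides reads common to paralogues by an estimate, which can shift levels within this family, and a TPM file keeps no depth.

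Genes averaging 1 TPM or more were fitted by genotype as log2(TPM + 1) with limma 3.58.1 in R 4.3.3. The variance prior followed mean expression, and p-values were adjusted by Benjamini-Hochberg, with calls at an FDR of 0.05. The differential analysis of the study used RSEM and was not repeated, as counts were not used here. The members and lists were chosen with earlier results of these data known. Genes named were the members, their family, the 3 highest and 3 lowest differences of each pathway list, fixed genes of the pathway, cell types and strains, the 5 genes nearest in profile to *Ifi202b*, and genes beside the cluster averaging 1 TPM or more. Alternatives covered the pseudocount, scaling, filter, trend, FDR, replicate block and leaving out each library. Names were matched to RefSeq GRCm38.p6 for 24264 of 24409 distinct gene names, 27 rows that carry a date as a name were given none, and shared words came from GENCODE transcripts. Which libraries are littermates is not given in the sources used here. The values of 1 fixed gene of the pathway are not reported here.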

Additional observations from a re-analysis of the deposited data

How the results depend on the processing

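With a log2 pseudocount of 0.1 TPM the difference rose to 5.86 for *Ifi202b*, 3.35 for *Ifi203*, 1.68 for *Mnda* and 2.85 for the member median, and the median between the controls to 5.43; with 5 TPM it was 1.66 for *Ifi202b* and 1.04 between the controls. Leaving out 1 library at a time, the difference ranged from 3.26 to 3.61 for *Ifi202b*, from 0.27 to 3.21 for *Ifi203*, from 0.23 to 3.74 for *Mndal*, from -0.83 to 3.14 for *Ifi204*, from -0.76 to 1.57 for *Mnda*, from -0.31 to 1.86 for *Aim2* and from -0.042 to 3.18 for the member median. The values below 0 came without control 2, the highest without control 1. The medians ranged from -0.083 to 1.21 (DNA sensing), -0.11 to 1.07 (interferon signalling), -0.32 to 1.73 (interferon-stimulated), -0.34 to 4.95 (leukocyte markers) and -0.20 to 0.82 (beside the cluster). Genes called ranged from 0 to 5610 higher and 0 to 1875 lower, and those at an unadjusted p under 0.05 from 59 to 6592 higher and 124 to 2798 lower; a lone library of a group is then taken to vary like the other group. In the pathway lists 0 to 75 genes were called, 24 to 96 were higher and 5 to 61 lower without overlap. At an unadjusted p under 0.05, median-ratio scaling gave 629 higher and 1079 lower genes and quantile normalization 1026 and 979; each gave 10 pathway genes lower without overlap, and a filter at 5 TPM gave 14 higher. The cause of these shifts was not tested.

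A replicate block left 656 higher and 451 lower genes at an unadjusted p under 0.05, with 0 called. Deviations of same-numbered libraries correlated at -0.16 over 14512 genes. With n = 2 libraries a group this is a single correlation, which cannot tell whether the samples were paired. With crossed numbers as the block, chosen after seeing the data, 7 genes were called higher, 80 lower and 1 in the pathway lists.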
